A study of Mus musculus with 8 samples.

Results

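The genes described here are 45 regulators of pre-mRNA splicing among the 12551 genes counted in tibialis anterior (TA) muscle. They are all genes in the counts whose symbol begins with Srsf (10 SR proteins) or Hnrnp (20 hnRNPs), together with 9 muscle splicing regulators of the Mbnl, Celf, Rbfox and Rbm families, the PTB proteins *Ptbp1* and *Ptbp2*, the Tra2 proteins *Tra2a* and *Tra2b*, and the kinases *Clk1* and *Clk4*. The rule uses gene names and no measured value, although it was written with earlier results of these data known. RNA was sequenced from whole TA muscles of 4 wild-type (WT) mice (Klotho wt/wt) and 4 KL-/- mice (Klotho null/null), male littermates 7 weeks of age, bred from heterozygous parents of mixed background. The deficiency is present in the whole animal, so it is not limited to muscle. *Kl* itself was not analysed here, so each genotype is taken from its label.

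Counts on genes summed to between 20860262 and 29273758 per library, and the 45 genes took between 0.401% and 0.433% of them. TMM factors, which scale the libraries, lay between 1.02 and 1.05 in WT and between 0.950 and 0.980 in KL-/- libraries without overlap, so small differences depend on the scaling. The labels give KL-/- replicate 3 a batch date of its own. Batch and mouse cannot be told apart there. The tissue label was matched by its markers, since 10 of 10 skeletal muscle fibre genes were counted, with a summed level of 127582 to 148707 CPM across WT and 156903 to 208005 CPM across KL-/- libraries (counts scaled to library size, CPM). Differences below are KL-/- over WT on the log2 scale, from edgeR's quasi-likelihood test on all genes with Benjamini-Hochberg adjustment (FDR), and genes with an FDR under 0.05 are said to have passed.

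SR proteins bind exonic sequences through RNA recognition motifs and recruit the splicing machinery through a domain rich in arginine and serine. CLK kinases phosphorylate that domain and thereby release SR proteins from nuclear stores, while many hnRNPs, including the PTB proteins, act against exon inclusion. In skeletal muscle, MBNL, CELF, RBFOX and RBM proteins set the postnatal splicing of transcripts for the sarcomere, the triad and ion channels. Many of these regulators also control the level of their own transcripts through exons or introns whose retention leads to decay or to nuclear storage. Gene counts hold the sum of all such forms, so they do not measure splicing.

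Of the 45 regulators, 8 passed as higher in KL-/- muscle and 0 as lower, whereas 7.35% of all genes tested were higher and 6.67% were lower (14% in either direction). The 8 genes were the kinases *Clk1* and *Clk4*, the SR protein genes *Srsf5* and *Srsf11*, the hnRNP genes *Hnrnpul1* and *Hnrnpul2*, *Ptbp2* and *Mbnl1*. The increases were modest, from 16.8% for *Hnrnpul1* to 46.6% for *Clk1*. DESeq2 called 13 higher and 0 lower, against 1313 and 1143 of all genes. Without adjustment 16 members had p under 0.05 with a positive change and 0 with a negative one. Over all genes, 4031 of 12551 had p under 0.05 in either direction. In 13 members all KL-/- samples lay above all WT samples and in 0 below, against 10.2% and 9.47% of all genes (19.7% in either direction).

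The 8 calls were not equally firm. *Srsf11*, *Clk4*, *Srsf5* and *Clk1* passed in every one of the 8 fits that left out 1 sample, and these 4 were also the only members that were higher with an FDR under 0.05 when library totals replaced TMM factors. The other 4 lost the threshold with library totals and in 5 to 7 of the 8 fits that left out 1 sample. When KL-/- replicate 3 was dropped, 4 members passed in place of 8, and dropping any other sample except WT replicate 4 or KL-/- replicate 2 left 4 or 5. Over all genes the number higher fell likewise, from 922 to 408 without KL-/- replicate 3 and to 492 with library totals. The median log2 fold change of the 45 genes was 0.10 with TMM factors and −0.014 with library totals, and 39 had a positive value with TMM factors against 21 with library totals. The same change of scaling moved the median of all genes from −0.016 to −0.13. Relative to the median of all genes, the median of the members lay 0.12 higher with either scaling, and 39 of the 45 lay above it. A change of scaling moves every gene by nearly the same amount, so this agreement was bound to occur and tests nothing.

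**Figure D1:**
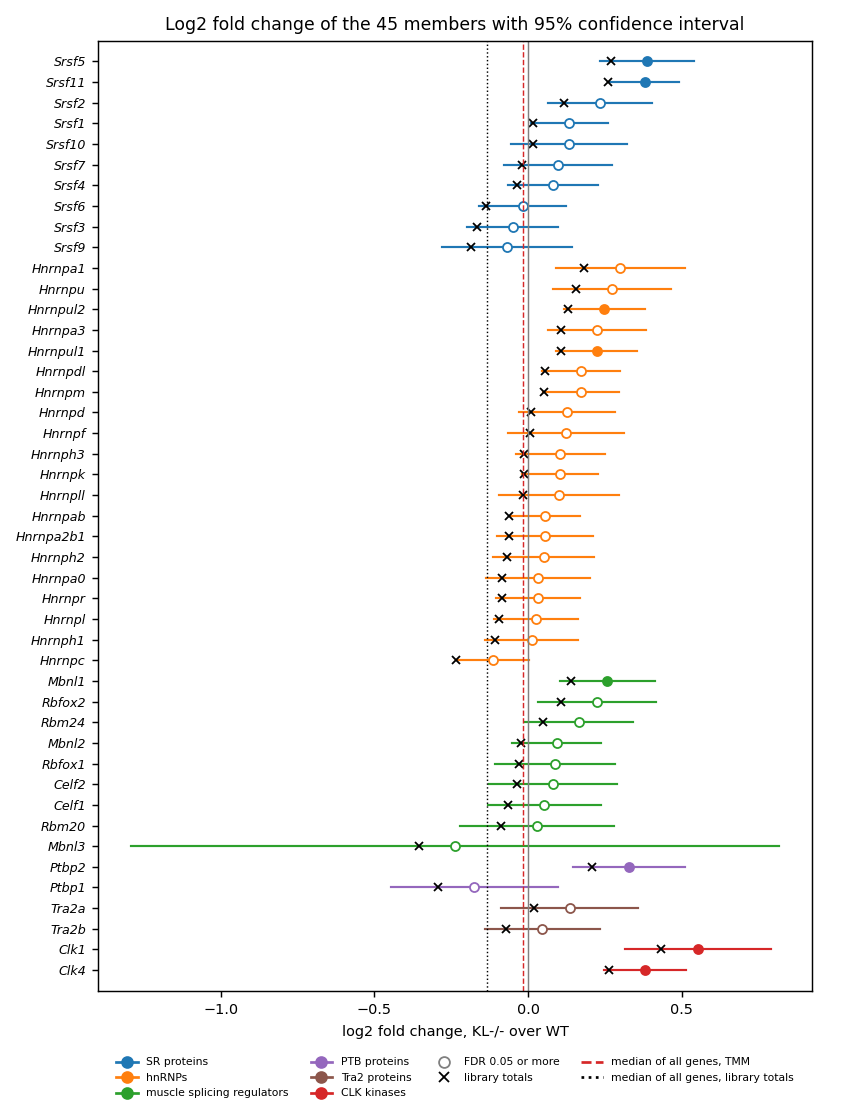
Log2 fold change of each of the 45 splicing regulators (KL-/- over WT, n = 4 per genotype) with its 95% confidence interval, grouped by class, with filled circles for an FDR under 0.05 and crosses for the value with library totals. The 8 filled circles lie between 0.22 and 0.55, and each cross lies to the left of the circle of its gene. The median of all genes with library totals lies at −0.13.

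The CLK kinases showed the largest change of the classes. *Clk1* (chromosome 1, 58411988 to 58424088 of mm10) was at 48.7, 45.1, 42.8 and 46.5 CPM in WT replicates 1 to 4 and at 53.2, 71.0, 66.9 and 77.4 CPM in KL-/- replicates 1 to 4. All KL-/- samples were above all WT samples, but KL-/- replicate 1 lay close to the WT range and the other 3 well above it. The log2 fold change was 0.55 (standard error 0.11, FDR = 0.0121 by edgeR), and from 0.48 to 0.66 with each sample left out. *Clk4* (chromosome 11, 51263114 to 51281770) was at 33.7, 33.5, 31.1 and 34.2 CPM in WT replicates 1 to 4 and at 43.1, 41.9, 45.5 and 41.9 CPM in KL-/- replicates 1 to 4. Here the 4 KL-/- samples lay close together, and their lowest value was above the highest WT value. The log2 fold change of *Clk4* was 0.38 (standard error 0.059, FDR = 0.00622 by edgeR). *Clk1* and *Clk4* encode kinases of the same family. The related kinase genes *Clk2* (log2 fold change 0.18, FDR = 0.397) and *Clk3* (log2 fold change −0.097, FDR = 0.362) did not pass.

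Among the 10 SR protein genes, 2 passed, both higher, where 7.35% of all genes were higher and 6.67% were lower. The median log2 fold change of the 10 was 0.12 with TMM factors. *Srsf11* (chromosome 3, 158010493 to 158036639), which encodes an SR-like protein found with the spliceosome, was at 43.6, 42.1, 43.8 and 42.4 CPM in WT replicates 1 to 4 and at 55.2, 54.7, 57.9 and 55.8 CPM in KL-/- replicates 1 to 4. The spread within each genotype was small beside the difference, and the genotypes did not overlap. It had the smallest FDR of the 45 genes (0.00382 by edgeR), with a log2 fold change of 0.38 and a standard error of 0.051. *Srsf5* (chromosome 12, 80945504 to 80950507), the most abundant SR transcript per kilobase, was at 93.1, 85.5, 87.5 and 89.1 CPM in WT replicates 1 to 4 and at 109, 107, 123 and 126 CPM in KL-/- replicates 1 to 4. KL-/- replicates 3 and 4 were higher than replicates 1 and 2, and all 4 lay above the WT samples (log2 fold change 0.39, standard error 0.069, FDR = 0.00916 by edgeR).

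*Srsf2*, the second most abundant SR transcript and a founding member of the family, was at 76.3 ± 4.33 CPM (WT) against 89.7 ± 8.10 CPM (KL-/-) (SD, n = 4) and did not pass (log2 fold change 0.23, FDR = 0.0682 by edgeR). The genotypes overlapped through KL-/- replicate 2, at 80.0 CPM against a WT maximum of 80.4 CPM, and without that sample the FDR was 0.0173. Exons of *Mettl23* and *Mfsd11* on the other strand overlap *Srsf2*, and how strand was handled in counting is not given in the sources used here. *Srsf1*, which an antisense gene overlaps, had a log2 fold change of 0.13 (FDR = 0.130). For the remaining 6 SR genes, *Srsf3*, *Srsf4*, *Srsf6*, *Srsf7*, *Srsf9* and *Srsf10*, values lay between −0.069 and 0.13, and the genotypes overlapped in each. Their FDR was 0.305 or more.

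**Figure D2:**
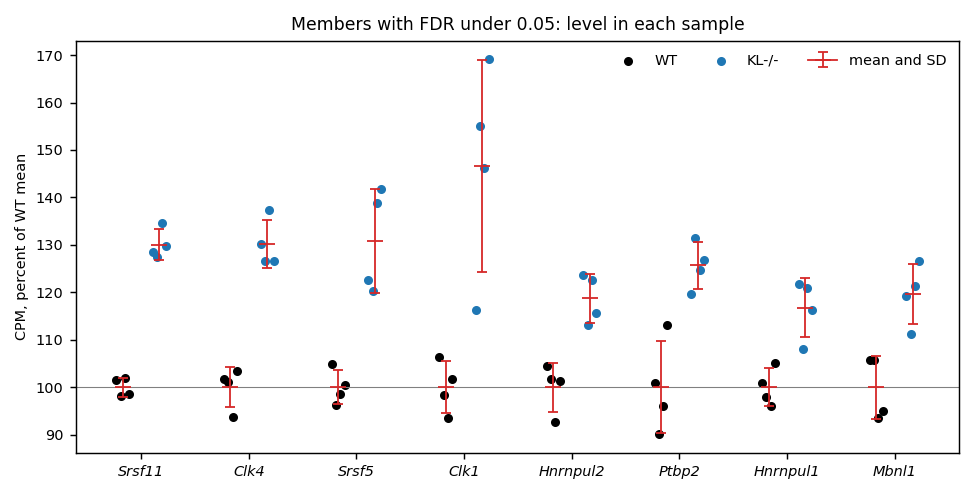
Level of the 8 members with an FDR under 0.05 in each sample, in CPM as a percentage of the WT mean of that gene, with red bars for the mean and SD of 4 mice per genotype. In every gene the lowest KL-/- point lies above the highest WT point, with the smallest spread in *Srsf11* and the widest KL-/- spread in *Clk1*.

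The promoters of *Clk4*, *Srsf5* and *Srsf11* are shown because these genes rose in every fit that left out 1 sample. *Clk1* did so too, but its promoter was not analysed here. The sequences are from RefSeq (GRCm38.p6), run 5′ to 3′ from 250 bases before to 50 bases after an annotated start, and capitals mark matches on either strand to 6 short motifs. These are CCAAT (NF-Y box), TATAA (TATA core), GGGCGG (GC box), CACGTG (E-box), TGACG (core of the CRE) and CCGGAA (ETS core).
Clk4, chr11:51262864-51263163, plus strand: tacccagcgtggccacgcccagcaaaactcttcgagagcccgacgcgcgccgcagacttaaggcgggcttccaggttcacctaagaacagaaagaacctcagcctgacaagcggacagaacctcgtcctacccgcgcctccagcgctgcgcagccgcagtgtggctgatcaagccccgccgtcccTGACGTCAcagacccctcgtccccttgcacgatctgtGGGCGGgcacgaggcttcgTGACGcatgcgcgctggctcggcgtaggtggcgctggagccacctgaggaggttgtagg
Srsf5, chr12:80945249-80945548, plus strand: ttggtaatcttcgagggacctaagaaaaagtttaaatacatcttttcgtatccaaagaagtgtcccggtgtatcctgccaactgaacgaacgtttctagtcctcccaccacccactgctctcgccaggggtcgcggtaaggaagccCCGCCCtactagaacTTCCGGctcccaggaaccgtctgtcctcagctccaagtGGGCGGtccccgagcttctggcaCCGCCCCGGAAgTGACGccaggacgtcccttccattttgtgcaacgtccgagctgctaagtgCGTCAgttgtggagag
Srsf11, chr3:158036557-158036856, minus strand: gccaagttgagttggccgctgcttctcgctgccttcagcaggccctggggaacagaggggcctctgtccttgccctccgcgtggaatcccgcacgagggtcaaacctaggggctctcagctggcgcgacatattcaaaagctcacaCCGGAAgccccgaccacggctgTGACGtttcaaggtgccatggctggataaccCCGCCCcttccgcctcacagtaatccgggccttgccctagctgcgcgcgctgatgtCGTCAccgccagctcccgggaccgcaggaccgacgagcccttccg
All 3 windows hold TGACG and GGGCGG, and the windows of *Srsf5* and *Srsf11* also hold CCGGAA. In *Clk4* a pair of the 3 TGACG matches overlap each other on opposite strands, and in *Srsf5* a GC box shares letters with an ETS core. A promoter was matched for 40 of the 45 members. TGACG was in 23 of these 40, or 57.5%, and in 20.8% of the 32851 RefSeq promoters of the same length. GGGCGG was in 72.5% of the member promoters and in 35.7% of all. The member promoters were also richer in G and C, with a median of 63.0% against 52.7%, and held a median of 27.5 CpG sites against 7. Each member gave 1 window, whereas the 32851 were not limited to 1 window per gene or to genes counted here. The part of base composition and of this unlike choice in the motif shares was not tested. Of the 6 members that passed and had a promoter, TGACG was in these 3 and not in the windows of *Ptbp2*, *Hnrnpul1* and *Mbnl1*, and GGGCGG was in 5, all but *Mbnl1*. A match is a run of letters and does not show that a factor binds there.

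Of the 20 hnRNP genes, 2 passed, both higher, where 7.35% of all genes were higher and 6.67% were lower. With TMM factors 19 of the 20 had a positive log2 fold change, against 5978 of the 12551 genes. Both that passed belong to the U-like branch of the family. *Hnrnpul2* (chromosome 19, 8819401 to 8834142) was at 116, 113, 103 and 112 CPM in WT replicates 1 to 4 and at 137, 125, 136 and 128 CPM in KL-/- replicates 1 to 4. *Hnrnpul1* (chromosome 7, 25722039 to 25754720) was at 80.8, 78.4, 76.8 and 84.1 CPM in WT replicates 1 to 4 and at 97.4, 86.5, 96.8 and 93.1 CPM in KL-/- replicates 1 to 4. In both genes the genotypes did not overlap, with a narrow gap in *Hnrnpul1* between WT replicate 4 and KL-/- replicate 2. The log2 fold change was 0.25 for *Hnrnpul2* (standard error 0.059, FDR = 0.0257 by edgeR) and 0.22 for *Hnrnpul1* (standard error 0.059, FDR = 0.0360). Without KL-/- replicate 3 the FDR was 0.0754 and 0.100, so that both calls were lost. *Hnrnpul2* shares exonic bases with another gene annotated on the same strand, and its counts are uncertain to that extent.

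In 7 of the 20 hnRNP genes all KL-/- samples lay above all WT samples and in 0 below, against 10.2% and 9.47% of all genes. In 5 of these the genotypes did not overlap although the FDR was 0.05 or more. These were *Hnrnpa1*, *Hnrnpu*, *Hnrnpa3*, *Hnrnpdl* and *Hnrnpm*, with log2 fold changes of 0.30, 0.27, 0.22, 0.17 and 0.17 and an FDR between 0.0608 and 0.0723 by edgeR. *Hnrnpu*, a large nuclear scaffold protein that binds RNA and chromatin, was at 141, 137, 131 and 147 CPM in WT replicates 1 to 4 and at 195, 147, 165 and 164 CPM in KL-/- replicates 1 to 4. The WT maximum and KL-/- replicate 2 were almost equal, and KL-/- replicate 1 stood highest. *Hnrnpa1* was at 5.91 ± 0.450 CPM (WT) against 7.27 ± 0.208 CPM (KL-/-) (SD, n = 4), a low level per kilobase for this gene family. *Hnrnpa1* and *Hnrnpa3* have many near-identical processed pseudogenes, and how reads that match several of these copies were handled was not analysed here.

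The most abundant transcript of all 45 regulators per kilobase, *Hnrnpa2b1*, was at 389, 343, 334 and 361 CPM in WT replicates 1 to 4 and at 339, 378, 387 and 378 CPM in KL-/- replicates 1 to 4. WT replicate 1 was the highest sample, and all 4 KL-/- samples lay within the WT range. The log2 fold change of 0.055 (FDR = 0.617 by edgeR) had a 95% confidence interval of −0.10 to 0.21. *Hnrnpk*, a poly(C)-binding member, was at 168 ± 4.04 CPM (WT) against 181 ± 9.23 CPM (KL-/-) (log2 fold change 0.10, FDR = 0.221), and exons of *Rmi1* on the other strand overlap it. *Hnrnpc*, chosen after its values were seen, was the hnRNP gene with a negative value (−0.12, FDR = 0.169 with TMM factors). With library totals it was the 1 member called lower (−0.23, FDR = 0.0200). The other 10 hnRNP genes had values from 0.012 (*Hnrnph1*) to 0.13 (*Hnrnpd*) and did not pass.

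**Figure D3:**
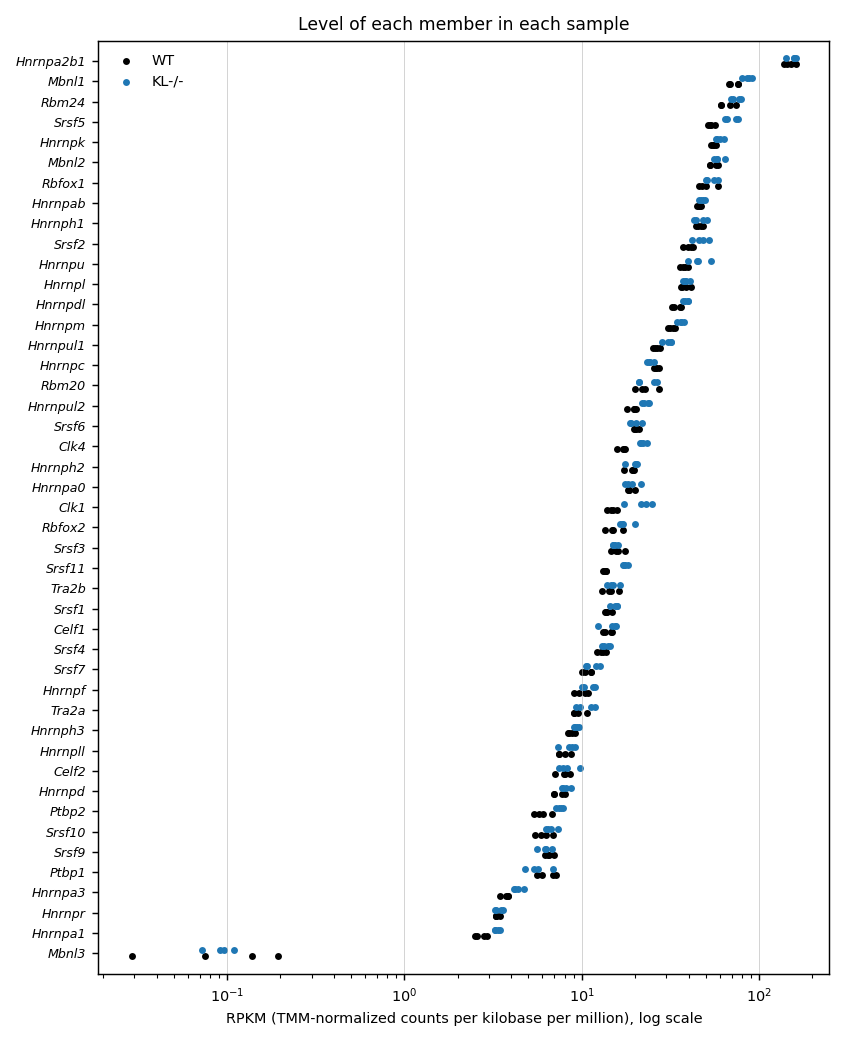
Level of each of the 45 splicing regulators in each of the 8 samples, as TMM-normalized counts per kilobase of exon and library size (RPKM) on a log scale, ordered by the mean. *Hnrnpa2b1* leads at 152 RPKM, *Mbnl3* is lowest at 0.101 RPKM, and in most genes the points of both genotypes lie on top of each other.

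Levels between genes were compared per kilobase of exon (RPKM). The median of the 45 regulators was 18.3 RPKM, against 5.18 RPKM over all genes counted. After *Hnrnpa2b1* at 152 RPKM came *Mbnl1* at 79.3, *Rbm24* at 70.2, *Srsf5* at 62.0, *Hnrnpk* at 57.6, *Mbnl2* at 57.1 and *Rbfox1* at 52.3 RPKM. Muscle regulators thus held 4 of the 7 highest places. The lowest levels were those of *Mbnl3*, *Hnrnpa1*, *Hnrnpr* and *Hnrnpa3*, at 0.101, 3.01, 3.37 and 4.04 RPKM. For *Hnrnpa1* and *Hnrnpa3* these values carry the limit given above on reads that also match pseudogenes, so their rank is uncertain. The coefficient of variation between WT mice was under 10% in 41 of the 45 genes, with a median of 5.68%, against 9.85% over all genes.

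Of the 9 muscle splicing regulators, *Mbnl1* passed as higher and the other 8 did not, where 7.35% of all genes were higher and 6.67% were lower. *Mbnl1* (chromosome 3, 60472830 to 60629748), whose protein is sequestered by expanded repeats in myotonic dystrophy, was at 444, 443, 392 and 398 CPM in WT replicates 1 to 4 and at 499.7, 467, 509 and 530.5 CPM in KL-/- replicates 1 to 4. All KL-/- samples lay above all WT samples, with WT replicates 1 and 2 nearest to them. The log2 fold change was 0.26 (standard error 0.069, FDR = 0.0375 by edgeR), but the gene passed in 1 of the 8 leave-one-out fits, and its FDR reached 0.103 without KL-/- replicate 4. *Mbnl2*, its closest paralog in muscle, was at 252 ± 13.0 CPM (WT) against 268 ± 16.7 CPM (KL-/-) (SD, n = 4). Its log2 fold change was 0.093 (95% confidence interval −0.052 to 0.24, FDR = 0.347), and an antisense gene overlaps it. *Mbnl3*, which is best known from regenerating and fetal muscle, was near the limit of counting in both genotypes, at 0.251 to 1.68 CPM among WT and 0.628 to 0.954 CPM among KL-/- samples, and its interval of −1.29 to 0.82 was wide.

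The RBFOX proteins bind UGCAUG elements beside alternative exons. *Rbfox1* was at 322, 277, 252 and 261 CPM in WT replicates 1 to 4 and at 278, 321, 304 and 277 CPM in KL-/- replicates 1 to 4, and the KL-/- samples lay within the WT range (log2 fold change 0.088, FDR = 0.523 by edgeR). *Rbfox2* was at 110.1, 125, 109 and 99.8 CPM in WT replicates 1 to 4 and at 125, 125, 122 and 147 CPM in KL-/- replicates 1 to 4. KL-/- replicate 4 stood apart from the other 3 KL-/- samples, and WT replicate 2 equalled them (log2 fold change 0.22, FDR = 0.107). *Rbm24*, which promotes inclusion of muscle exons, was at 213 ± 20.0 CPM (WT) against 239 ± 14.8 CPM (KL-/-) (log2 fold change 0.17, FDR = 0.176). *Rbm20*, the regulator of titin splicing, was at 152 ± 20.4 CPM (WT) against 155 ± 19.0 CPM (KL-/-) (log2 fold change 0.029, 95% confidence interval −0.22 to 0.28, FDR = 0.878). *Celf1* and *Celf2*, which act against MBNL proteins on many exons, had log2 fold changes of 0.052 (FDR = 0.692) and 0.082 (FDR = 0.576). In each of these 6 genes the samples of the genotypes overlapped.

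*Ptbp2*, best known as the neural PTB protein, was at 20.3, 18.2, 19.4 and 22.8 CPM in WT replicates 1 to 4 and at 24.1, 26.5, 25.2 and 25.6 CPM in KL-/- replicates 1 to 4. WT replicate 4 came closest to the KL-/- samples, which were all above it (log2 fold change 0.33, standard error 0.081, FDR = 0.0288 by edgeR). *Ptbp1*, the form found in most other tissues, was at 19.9 ± 2.24 CPM (WT) against 17.6 ± 2.67 CPM (KL-/-) (SD, n = 4). KL-/- replicates 3 and 4 were below all WT samples and KL-/- replicates 1 and 2 were within the WT range, and the log2 fold change of −0.18 did not pass (FDR = 0.342). Exons of 3 genes on the other strand overlap *Ptbp1*. *Tra2a* and *Tra2b*, SR-like activators of exon inclusion, had log2 fold changes of 0.14 (FDR = 0.369) and 0.047 (FDR = 0.729), with overlap of the genotypes in both.

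Ratios of counts between paralogs within a library do not depend on the scaling. The 6 pairs were compared with exact permutation tests, two-sided, over 70 relabelings (smallest possible p = 0.0286), with Benjamini-Hochberg adjustment over the 6 pairs. Even at that smallest p, a single pair could not reach an adjusted p under 0.05. An adjusted p above it therefore decides nothing for a pair alone. The *Ptbp1*/*Ptbp2* ratio was 0.859, 1.18, 1.14 and 0.813 in WT replicates 1 to 4 and 0.882, 0.660, 0.595 and 0.649 in KL-/- replicates 1 to 4. It was lower in 3 of the KL-/- samples than in any WT sample, while KL-/- replicate 1 lay within the WT range, and the mean log2 ratio was −0.022 ± 0.28 (WT) against −0.54 ± 0.25 (KL-/-, SD, n = 4, exact permutation p = 0.0857, adjusted p = 0.257). The *Mbnl1*/*Mbnl2* ratio was 1.67, 1.84, 1.52 and 1.66 in WT replicates 1 to 4 and 1.71, 1.83, 1.94 and 2.02 in KL-/- replicates 1 to 4. The genotypes overlapped (exact permutation p = 0.0857, adjusted p = 0.257). A change of *Mbnl1* relative to *Mbnl2* was thus not shown, and the adjusted test had little room to show one. The ratios of *Rbfox1* to *Rbfox2*, *Celf1* to *Celf2*, *Tra2a* to *Tra2b* and *Clk1* to *Clk4* also overlapped between the genotypes, with adjusted p between 0.514 and 0.943 in the same exact tests.

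For the 37 members that did not pass, the precision sets what could be seen. The distance from the log2 fold change to either end of its 95% confidence interval had a median of 0.16 over the 45 genes and was at most 0.27 outside *Mbnl3*. In 35 of the 37 the interval lay between −0.5 and 0.5. The exceptions were *Hnrnpa1*, whose interval reached 0.51, and *Mbnl3*. Of the 8 genes that passed, only 1 changed by more than 0.5, so this bound is wide beside the changes called. In 29 of the 37 the interval included no change, and in the rest it did not. All these intervals are those with TMM factors. A p that missed the threshold does not show that a level was equal in the genotypes.

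What the 8 genes that passed shared in annotation was compared with the other members as a description. In GENCODE M21, 8 of these 8 genes and 26 of the other 37 have an annotated retained-intron transcript, and 5 of 8 and 22 of 37 have a transcript annotated for nonsense-mediated decay. Of the annotated transcripts of *Clk4*, *Clk1* and *Srsf11*, 7 of 14, 7 of 13 and 11 of 19 retain an intron. The counted exons of *Clk1* include 1 exon that also covers the 1349 bases between a pair of other counted exons. The number of reads on that stretch was not analysed here. The shares of spliced and intron-containing RNA were not analysed here.

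Related splicing genes outside the 45 were counted in 4 lists chosen by function, 105 genes in all, of which 28 passed as higher and 4 as lower, where 7.35% and 6.67% of all genes did. Library totals gave 16 higher and 7 lower, and the counts were 15 and 1 without WT replicate 2 and 16 and 0 without KL-/- replicate 3. The list with the highest share was that of 24 SR-related and junction proteins, which carry arginine and serine rich stretches or sit at exon junctions. In it 13 genes were higher and 1 was lower, and the median log2 fold change was 0.30, against −0.016 over all genes and 0.10 over the 45 members. With library totals 7 were higher, and when 1 sample was left out the count fell to 7 without WT replicate 2, 8 without KL-/- replicate 3, 8 without KL-/- replicate 4. *Srrm1*, a coactivator that bridges SR proteins and snRNPs, was at 66.2, 62.8, 60.5 and 69.3 CPM in WT replicates 1 to 4 and at 96.6, 88.2, 93.1 and 93.1 CPM in KL-/- replicates 1 to 4. The genotypes were far apart (log2 fold change 0.52, FDR = 0.00244 by edgeR). *Luc7l2*, a U1 snRNP-associated factor, *Srek1*, a modulator of SR proteins, and *Sfswap*, a suppressor-of-white-apricot homolog, had log2 fold changes of 0.41, 0.41 and 0.35 (FDR = 0.00583, 0.00623 and 0.00697), without overlap. The 1 lower gene, the neural factor *Srrm4*, was at 1.33 ± 0.459 CPM (WT) against 0.370 ± 0.280 CPM (KL-/-) (SD, n = 4), a low level in both, and was named after its values were seen.

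Of 9 other kinases and importers of SR proteins, *Srpk2* (log2 fold change 0.36, FDR = 0.0165 by edgeR) and *Prpf4b* (log2 fold change 0.22, FDR = 0.0320) were higher and 0 were lower. The muscle-specific kinase *Srpk3* (log2 fold change −0.17, FDR = 0.343) and the importer *Tnpo1* (log2 fold change −0.14, FDR = 0.191) did not pass. Among the 44 of 51 other splicing regulators that were counted, 8 were higher and 1 was lower. Of all genes, 7.35% were higher and 6.67% were lower. The cold-inducible RNA binder *Rbm3* was at 27.2, 31.1, 26.8 and 37.7 CPM in WT replicates 1 to 4 and at 83.6, 59.9, 82.8 and 101 CPM in KL-/- replicates 1 to 4. Its genotypes were widely separated (log2 fold change 1.41, FDR = 0.00244), and it had the largest change among the members and these lists apart from the decrease of *Srrm4*. *Ewsr1*, *Rbm17* and *Rbm25* were higher by 0.35, 0.42 and 0.29 on the log2 scale (FDR = 0.00598, 0.0104 and 0.0119).

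Of 28 muscle transcripts known for regulated alternative exons, 5 were higher and 2 were lower in gene counts, where 14% of all genes passed in either direction. *Dmd* (dystrophin), *Trdn* (triadin), the factor gene *Nfix* and *Ryr1* (the calcium release channel) had log2 fold changes of 0.39, 0.46, 0.28 and 0.40 (FDR = 0.00733, 0.00738, 0.0329 and 0.0359 by edgeR). *Dmd* and *Trdn* passed in all 8 fits that left out 1 sample and with library totals. *Nfix* and *Ryr1* passed in 1 and 2 of these fits and not with library totals (FDR = 0.123 and 0.0731). The 2 lower genes, *Camk2d* and *Ank2*, had log2 fold changes of −0.41 and −0.32 (FDR = 0.0417 and 0.0460 by edgeR). They passed in 1 and 2 of the fits that left out 1 sample, and with library totals (FDR = 0.0130 and 0.0133). Both were named after their values were seen. All values in this list are levels of whole genes and say nothing of which exons were used.

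**Figure D4:**
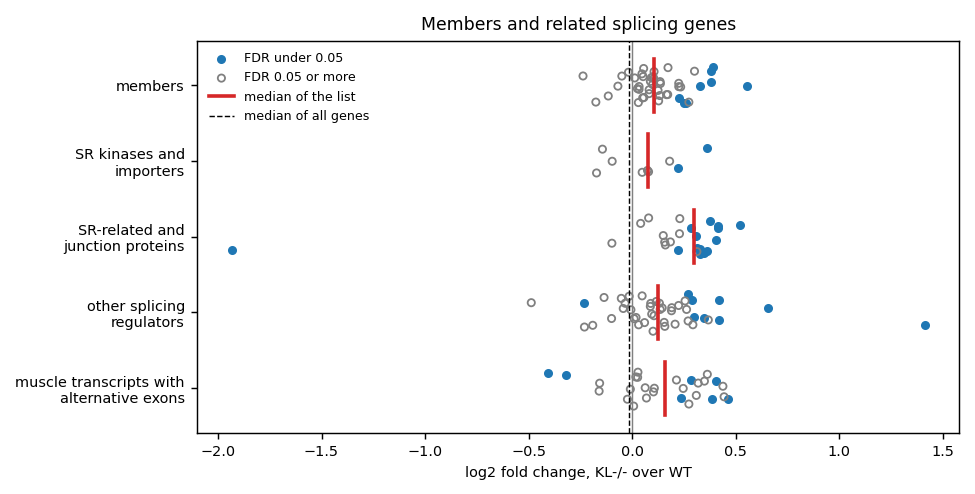
Log2 fold change (KL-/- over WT) of the 45 members and of the genes in the 4 related lists, 1 point per gene, with blue for an FDR under 0.05, red bars for the median of each list and a dashed line for the median of all genes. The SR-related and junction proteins have a median of 0.30, and the outlying points at −1.93 and 1.41 are *Srrm4* and *Rbm3*.

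Whole muscle holds several cell types, and in bulk RNA fewer cells of a type and less RNA per cell cannot be told apart. Summed levels of 7 fibro-adipogenic markers, 0 of them higher and 3 lower with an FDR under 0.05, were 763 to 2920 CPM across WT and 411 to 1300 CPM across KL-/- libraries. The 8 macrophage markers (0 higher, 1 lower) summed to 62.3 to 133 CPM across WT and 45.3 to 78.8 CPM across KL-/- libraries, and the 8 endothelial markers (0 higher, 1 lower) to 501 to 728 CPM across WT and 465 to 519 CPM across KL-/- libraries. The 7 Schwann cell markers (3 higher, 0 lower) summed to 53.1 to 94.1 CPM across WT and 98.5 to 119.8 CPM across KL-/- libraries, and of the 10 fibre markers, whose sums are given above, 1 was higher and 0 were lower. The levels of 5 satellite cell, 7 smooth muscle and pericyte and 4 adipocyte markers were 35.6 to 46.3 CPM across WT and 44.0 to 48.6 CPM across KL-/- libraries, 333 to 505 CPM across WT and 373 to 469 CPM across KL-/- libraries, and 184 to 215 CPM across WT and 215 to 290.3 CPM across KL-/- libraries, with 0, 1 and 1 of them higher and 0 lower. The 1 erythrocyte marker counted, *Alas2*, was at 3.35 to 9.57 CPM across WT and 3.07 to 9.16 CPM across KL-/- libraries. Among 4 nuclear-retained RNAs, *Neat1* was higher (log2 fold change 0.41, FDR = 0.0444 by edgeR) and 0 were lower, and their sum was 1165 to 1294 CPM across WT and 1377 to 1819 CPM across KL-/- libraries. The part of these shifts in the levels of the splicing regulators was not tested.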

How the data were processed

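RNA from whole TA muscles of 4 WT and 4 KL-/- mice was sequenced. The labels name total RNA and the methods mRNA sequencing. Reads were mapped to mm10 (STAR), filtered for alignment quality and assigned to genes (featureCounts) by the authors, who deposited raw counts. The annotation and strand setting are not given in the sources used here, and 89.4% of the distinct counted exons are exons of GENCODE M21.

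The tests were run with edgeR 4.0.16 (R 4.3.3), whose filterByExpr kept all 12551 genes. TMM factors and the quasi-likelihood test with genotype as the only term were used (edgeR 4 dispersions), with adjustment over all genes. Totals of 20860262 to 29273758 counts put a floor of 3 counts at 0.105 to 0.143 CPM. No library pair of a genotype was a duplicate (chi-square per gene 9.91 or more). Tests were checked on simulated counts.

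Alternatives were DESeq2 1.42.0, the edgeR likelihood ratio test, limma-voom (limma 3.58.1), RLE factors, library totals, no filter, a minimum of 10 counts per sample, a block for replicate number, each sample left out, and, added later, edgeR 3 dispersions. The members and lists were chosen with earlier results of these data known. Named genes are the members that passed, the 2 most abundant per class, all muscle, PTB, Tra2 and CLK members, the 3 largest changes that did not pass, up to 5 without overlap, the 4 lowest levels and the 4 smallest p of each related list. Genes outside this rule were named after their values were seen, among them *Hnrnpc*, *Clk2*, *Clk3*, *Srrm4*, *Camk2d*, *Ank2* and *Neat1*.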

Additional observations from a re-analysis of the deposited data

Results flagged for a closer look

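Among 102 groups of 4 samples (45 genes and 6 ratios in 2 genotypes), 3 held a sample far from the other 3 by Dixon's test, where chance flags about 1 in 20. *Rbfox2* in KL-/- replicate 4 was at 147 CPM, with the other KL-/- samples at 122 to 125 CPM, and without that sample its log2 fold change was 0.158 (FDR = 0.248 by edgeR). *Hnrnpa0* in WT replicate 2 was at 53.4 CPM, with the other WT samples at 48.8 to 49.5 CPM. *Hnrnpr* in WT replicate 4 was at 27.6 CPM, with the others at 26.3 to 26.5 CPM. None of these 3 genes passed the threshold.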

How the results depend on the processing

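At an FDR under 0.05, the counts of higher and lower genes were 8 and 0 members, 13 and 1 SR-related and junction genes, 28 and 4 related splicing genes, 922 and 837 all genes with TMM factors and genotype only, 4 and 1 members, 7 and 2 SR-related and junction genes, 16 and 7 related splicing genes, 492 and 2127 all genes with library totals, and 4 and 0 members, 5 and 0 SR-related and junction genes, 10 and 0 related splicing genes, 348 and 323 all genes with the replicate number as a block. DESeq2 gave 13 members higher, and a minimum of 10 counts in every sample left 0 SR-related genes lower because *Srrm4* was not tested. With each sample left out in turn, the ranges were 4 to 11 higher and 0 lower for members, 7 to 14 higher and 0 to 1 lower for SR-related and junction genes, 15 to 36 higher and 0 to 4 lower for related splicing genes, 404 to 1521 higher and 343 to 1234 lower for all genes. The members' count was 5, 4 and 4 without WT replicates 1, 2 and 3, and 5, 4 and 4 without KL-/- replicates 1, 3 and 4. With library totals, the log2 fold change of all members moved by about the shift of the median of all genes, and 18 turned negative, none of them past the threshold: *Hnrnph3* −0.012, *Hnrnph1* −0.11, *Hnrnpab* −0.062, *Hnrnpa0* −0.084, *Hnrnpk* −0.014, *Mbnl2* −0.024, *Rbfox1* −0.030, *Tra2b* −0.071, *Hnrnpll* −0.017, *Srsf7* −0.019, *Rbm20* −0.087, *Celf2* −0.036, *Celf1* −0.065, *Srsf4* −0.037, *Hnrnpr* −0.086, *Hnrnpa2b1* −0.063, *Hnrnpl* −0.094, *Hnrnph2* −0.067. The median over the members was −0.014. Leaving out 1 sample turned the sign of 7 members that did not pass, over ranges of −0.034 to 0.049 for *Hnrnph1*, −0.022 to 0.076 for *Hnrnpa0*, −0.0010 to 0.11 for *Tra2b*, −0.034 to 0.12 for *Rbm20*, −0.054 to 0.021 for *Srsf6*, −0.00029 to 0.064 for *Hnrnpl*, −0.58 to 0.23 for *Mbnl3*, and limma-voom gave 0.070 for *Mbnl3*. The differences in log2 ratio ranged, with 1 sample left out, from 0.12 to 0.21 for Mbnl1/Mbnl2, −0.19 to −0.041 for Rbfox1/Rbfox2, −0.11 to 0.13 for Celf1/Celf2, −0.64 to −0.43 for Ptbp1/Ptbp2, −0.011 to 0.15 for Tra2a/Tra2b, 0.074 to 0.27 for Clk1/Clk4. Samples with the same replicate number correlated at −0.16, 0.19, −0.40 and 0.015 in their deviations from the genotype means. With 4 samples per genotype these values cannot decide whether the numbers pair the mice. Under the block 4 members passed, the same 4 that were higher with library totals, and the paired test of the *Ptbp1*/*Ptbp2* ratio gave an exact p = 0.250 (difference −0.52 on the log2 scale, smallest possible p = 0.125).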
